A study of Caenorhabditis elegans with 2 samples.

Results

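Chromosome II carried 1034 of the 6218 KLE-2 peaks in the deposited list, taken as every peak whose chromosome is given as II (WormBase assembly WS220). KLE-2 is a kleisin, the subunit that closes the ring of condensin II, the complex that compacts and helps to segregate chromosomes. The list came from 1 chromatin immunoprecipitation (ChIP-seq) library of whole fem-2(b245) III hermaphrodites of Caenorhabditis elegans, labelled as young adults that hold a germline and grown at 20 °C, although the growth protocol describes gravid adults. The library was made with an affinity-purified rabbit polyclonal antibody, and 1 input library of the same animals belongs to the series, whose values were not analysed here. FEM-2 is a sex determination factor needed for male development, and its allele is carried by both libraries, so the list holds no animals of another genotype to set beside it. Whole animals mix germline and somatic cells, and a peak cannot be assigned to either.

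The ring is formed by KLE-2 with a pair of SMC proteins, and the kleisin also binds the remaining subunits of the complex. Worm chromosomes are holocentric, which means that spindle attachment is spread along their length instead of being held at a single centromere, and condensin II acts along the whole chromosome in dividing cells. The autosomes of this species have gene-dense centers with little meiotic recombination, flanked by arms that recombine more and hold more repeats. Here each arm is the outermost 33.3% of the chromosome on its side, with length counted from base 1 up to where the final peak ends, and a peak belongs to the region that holds its midpoint.

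All values come from 1 list, so nothing below has a replicate check and no test between conditions was possible. Intervals are exact 95% intervals (Poisson for densities, Clopper-Pearson for shares, order statistics for medians) for counting error only. Peaks that lie close together are not independent, so the intervals can be too narrow. The other autosomes (I, III, IV and V, with 4749 peaks) serve as background. An exact test of 1 chromosome among the 5 autosomes cannot give a p below 0.2, so ranks among them are descriptions.

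Over its span of 15.3 Mb, chromosome II held 67.7 peaks per Mb (63.7 to 72.0), against 70.6 per Mb (68.6 to 72.7) on the other autosomes together. The peaks covered 690.4 kb, or 4.52% of the chromosome, against 4.80% of the other autosomes. Chromosome II ranked in the middle of the 5 autosomes, between chromosome I with 87.6 and chromosome IV with 64.4 peaks per Mb, and its interval overlapped that of chromosome IV. Its full 1-Mb windows held 67.7 ± 13.6 peaks (SD, n = 15 windows), from 52 at the left end of the chromosome to 98 between 11 and 12 Mb.

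The right arm of chromosome II held more peaks than the left, and the arms differed further in the scores of their peaks. The left arm held 339 peaks, 66.6 per Mb (59.7 to 74.1). The center held 296, 58.2 per Mb (51.7 to 65.2), and the right arm 399, 78.4 per Mb (70.9 to 86.5). Both arms were therefore denser than the center, by a ratio of 1.15 on the left and 1.35 on the right, with the left arm's interval overlapping that of the center. Both arms were also denser than the center on III (1.08 and 1.08) and V (1.05 and 1.16), but only the left arm was on I and IV. The right arm was denser than the left on V as well, by a ratio of 1.11, but not on I, III or IV. On II the left arm had 11.8 peaks per Mb fewer than the right, but the intervals of the arms overlapped slightly. The difference was 7.08 per Mb after peaks within 500 bp were merged, with an interval that included 0.

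Each peak has a score given by the authors, on a scale that the list does not name. It was used here only to rank and group peaks within this list, and its median over all 6218 peaks was 229.53. The left arm had a low share of high-scoring peaks. Of its 339 peaks, 132 had a score above the list median, 38.9% (33.7 to 44.4%), against 46.9% (44.5 to 49.3%) in the left arms of the other autosomes together. Taken singly, the left arms of I (46.5%), III (44.9%) and IV (44.9%) had intervals that overlapped that of II. The interval of V (52.5%) did not. Without the peaks of the window from 3 to 4 Mb the left-arm share of II was 43.0% (37.0 to 49.2%), an interval that includes the pooled background of 46.9%. In the center 182 of 296 peaks scored above the list median, 61.5% (55.7 to 67.1%, other autosomes 56.1%). In the right arm 226 of 399 did so, 56.6% (51.6 to 61.6%, other autosomes 48.9%). The center of III was close to that of II, at 60.4%. Over the whole of chromosome II the share was 52.2%, near the background of 50.5%.

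Counted by density, the stronger peaks (score above the list median) were sparsest in the left arm and densest in the right arm. They numbered 25.9 per Mb on the left (21.7 to 30.8), 35.8 in the center (30.8 to 41.4) and 44.4 on the right (38.8 to 50.6), and the intervals of the arms did not overlap. On the other autosomes together they numbered 35.9, 37.9 and 33.1 per Mb in the same order. Against these pooled values, the left arm of II held fewer stronger peaks per Mb and its right arm more. Neither level was particular to II, since both arms of V held 25.4 per Mb and the right arm of III held 47.9. The right arm of II held 1.71 times the left arm's density of stronger peaks. The same ratio was 0.804 on chromosome I, 1.13 on III, 0.783 on IV and 1.00 on V. The weaker peaks, those with scores up to the list median, had another shape. They numbered 40.7 per Mb on the left (35.3 to 46.6), 22.4 in the center (18.5 to 26.9) and 34.0 on the right (29.1 to 39.5). The other autosomes together had 40.7, 29.7 and 34.6 weaker peaks per Mb. The left arm of II was therefore level with their pooled value in weaker peaks, and its low share of high scores went with fewer stronger peaks. By chromosome, the other left arms held 53.7 weaker peaks per Mb on I, 52.1 on III, 41.7 on IV and 23.0 on V. The center of II held fewer weaker peaks per Mb than the other centers together (27.5 to 32.1), with intervals that did not overlap. Taken singly, the center of V was lower still, at 20.1 per Mb (16.9 to 23.7). The interval of the center of IV (25.3 to 34.3) overlapped that of II.

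**Figure D1:**
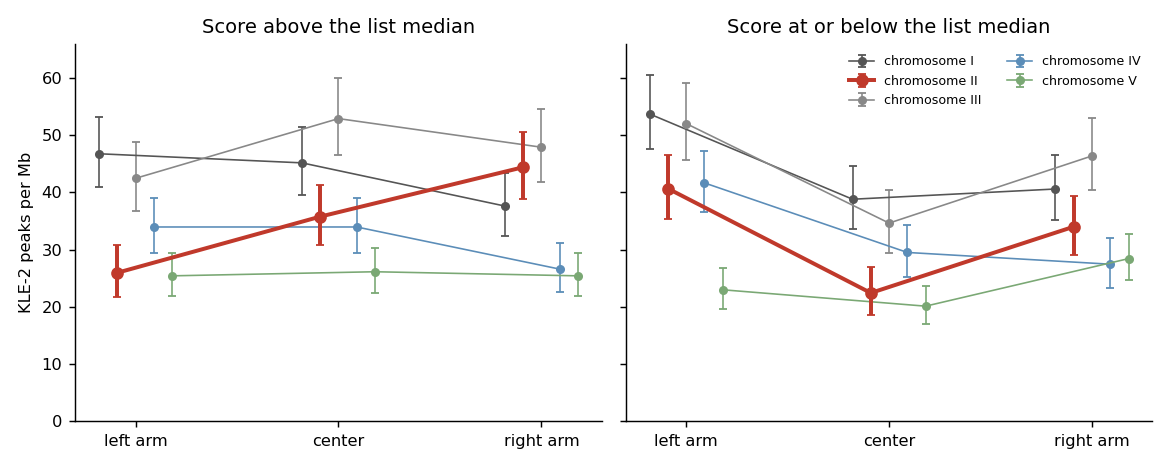
Density of KLE-2 peaks (peaks per Mb) in the left arm, center and right arm of the 5 autosomes, for peaks with a score above the list median (left panel) and at or below it (right panel); points are densities from 1 peak list, bars are exact Poisson 95% intervals, and lines only join the regions of a chromosome. On chromosome II (red) the stronger peaks run from 25.9 per Mb on the left to 44.4 on the right, while the weaker peaks are lowest in the center at 22.4 per Mb.

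The median score was 154.86 in the left arm of chromosome II (136.52 to 196.14), 303.67 in the center (258.29 to 363.02) and 300.55 in the right arm (240.08 to 350.15). Among the 15 arms and centers of the autosomes, the left arm of II had the lowest median score and the center of II the highest, followed by the center of chromosome III with 301.25. The center's rank was not stable, since that of chromosome III was above it after peaks within 500 bp were merged (348.4 against 345.045) and with arms of 25% of the span (298.18 against 279.28). The left arm's interval overlapped that of the left arm of chromosome I, which was next with a median of 197.78 (169.38 to 241.39). Widths followed the scores, with medians of 492, 580 and 565 bp in the left arm, center and right arm.

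Among the full 1-Mb windows of II, the lowest median scores were those of the first 4 Mb. They were 171.465, 151.555, 153.255 and 111.81 in order from the left end. Within the first of these windows, the outermost 500 kb had a median of 299.065. Other autosomes also had windows with medians between 111.81 and 171.465, such as 155.985 on I and 162.38 on III, both between 2 and 3 Mb. On II, the window from 3 to 4 Mb had the lowest median of the 80 full 1-Mb windows of the autosomes. It held 74 peaks, the fourth most among the 15 full windows of the chromosome, of which only 18 (24.3%) had a score above the list median, and none was at the score ceiling. In the windows from 4 to 15 Mb the median score ran from 212.06 to 381.33, the highest of them between 7 and 8 Mb. Windows from 5 to 15 Mb all had at least 50.9% of their peaks above the list median.

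**Figure D2:**
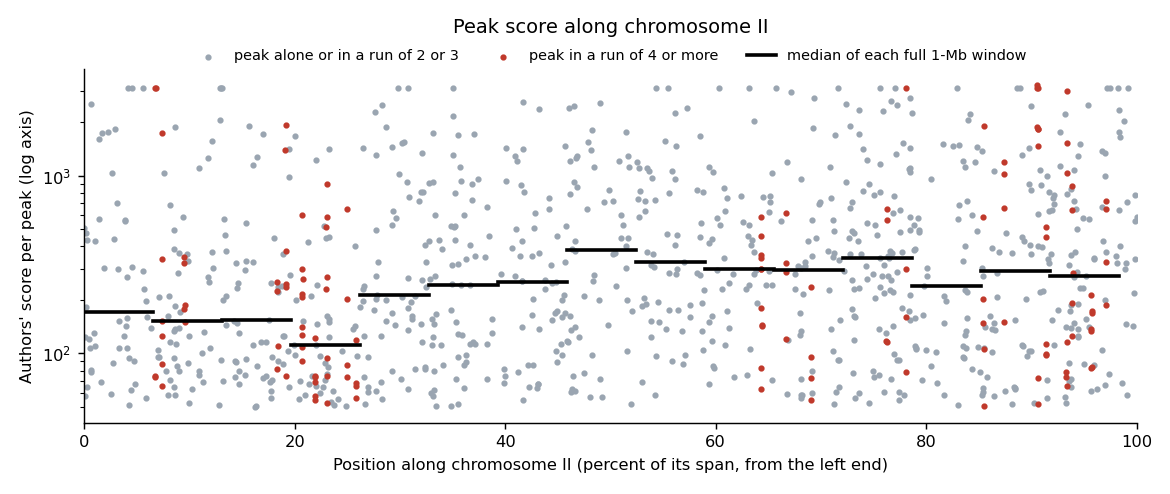
Authors' score (log axis) of each of the 1034 KLE-2 peaks against position along chromosome II as a percent of its span, with peaks in runs of 4 or more in red and black lines at the median of each full 1-Mb window. The medians of the first 4 windows lie between 111.81 and 171.465, and those of the later windows lie at 212.06 or above.

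Peaks of the very highest scores occurred in all 3 regions. Scores reached a ceiling at 3100, a value that 171 peaks of the list share exactly. On chromosome II 30 peaks were at the ceiling or above it, 2.90% (1.97 to 4.12%), near the background of 2.72% on the other autosomes. The left arm held 10 of them, the center 6 and the right arm 14, or 1.97, 1.18 and 2.75 per Mb. As a share of its own peaks the left arm was at 2.95%, the center at 2.03% and the right arm at 3.51%. The left arm of II was thus lowest of the 15 regions in median score while its share of ceiling peaks was 2.95%, against 2.74% in the left arms of the other autosomes. The highest 25% of scores of the whole list were scarcer there, with 61 left-arm peaks or 11.99 per Mb, against 18.0 per Mb in the other left arms. No peak reached the ceiling over 2941 kb between 5347000 and 8288255, a stretch that lies in the center and holds the 1-Mb window with the highest median score.

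Of the 30 ceiling peaks, 20 had no other ceiling peak within 50 kb, and the remaining 10 formed 4 groups. A group of 3 at 13817565 to 13827837 spanned 10.3 kb and contained the highest score on chromosome II, 3219.64 at 13820918 to 13822336. A group of 3 in the left arm, at 1967353 to 2004072, spanned 36.7 kb, and its members were not in runs of close peaks. A pair at 1034238 to 1039446 spanned 5.21 kb, and another pair at 14835521 to 14879634 spanned 44.1 kb. The ceiling peaks were wide, with a median of 2065 bp (range 763 to 5713 bp), and 3 of them were narrower than 1 kb.

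With peaks of every score counted together, the right arm was denser than the left, with 78.4 against 66.6 per Mb. Among the weaker peaks the left arm was the denser one, with 40.7 against 34.0 per Mb. Of all 30 ceiling peaks, 19 lay past the midpoint of the span and 11 before it, which alone does not show a lean of the ceiling peaks. The 10 ranked first include 8 that were picked by width among tied scores. The second highest, 3116.76, lay at 13520404 to 13522522 in the right arm, 25.3 kb from its nearest neighbour. The other 8 tied at 3100. A peak of 5713 bp in the left arm (693595 to 699307) lay 2.07 kb from the nearest peak. In the right arm, a peak of 5124 bp (11756815 to 11761938) was 6.66 kb from its neighbour. Near the right end, a peak of 4928 bp (15138055 to 15142982) was 17.0 kb from its neighbour. A center peak of 4606 bp (8288256 to 8292861) had a neighbour at 0.248 kb. The remaining 4 had no other peak within 2 kb. In the right arm they were at 10932509 to 10935855 (3347 bp), at 12648719 to 12651680 (2962 bp) and at 14991309 to 14994115 (2807 bp). In the center it was the peak at 9631632 to 9634767 (3136 bp). Just below the ceiling on chromosome II were scores of 2982.52, 2936.07 and 2718.7, all in the right arm.

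In bins of 100 kb, the peaks of chromosome II were unevenly spread. The 152 full bins held 6.76 ± 3.78 peaks (SD over bins), and the variance was 2.11 times the mean, near the 2.10 to 2.53 of the other autosomes taken singly. A single bin, from 12.5 to 12.6 Mb, held no peak. Bins with 12 or more peaks numbered 20, or 13.2%, against 14.9% on the other autosomes, and 15 bins, or 9.87%, held 2 or fewer, against 13.3%. These pooled values average unlike chromosomes. Taken singly, the share with 12 or more ran from 3.35% on V to 26.3% on III. The share with 2 or fewer ran from 5.11% on III to 25.8% on V.

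Crowded bins were found mainly in the right arm and sparse ones mainly in the center. Of the 20 bins with 12 or more peaks, the left arm had 7, the center 2 and the right arm 11. Of the 15 bins with 2 or fewer, the left arm had 2, the center 9 and the right arm 4. By region the bins held 6.69 ± 3.66 peaks in the left arm (SD, n = 51 bins), 5.80 ± 3.20 in the center (SD, n = 51 bins) and 7.82 ± 4.22 in the right arm (SD, n = 50 bins), so single bins of the 3 regions overlapped widely. No left-arm bin lacked a weaker peak, while 7 center bins and 4 right-arm bins did.

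The fullest bin held 19 peaks, from 14.3 to 14.4 Mb, of which 12 were above the list median score, and its peaks covered 16.2 kb. The second, with 18 peaks, lay in the left arm from 3.5 to 3.6 Mb, and its median score was 158.785. Bins with 16 peaks lay from 14.2 to 14.3 Mb, next to the fullest bin, and in the left arm from 1.3 to 1.4 Mb. They had median scores of 128.57 and 137.665. The fifth, with 15 peaks from 13.8 to 13.9 Mb, had a median score of 1072.63 and held the 3 grouped ceiling peaks. Equal crowding thus came with weak peaks in some bins and with strong peaks in others. Between 11.5 and 12 Mb, a stretch chosen after its values were seen, 5 bins in a row held 13, 12, 12, 9 and 14 peaks, together 60 of the 98 peaks of the fullest 1-Mb window.

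**Figure D3:**
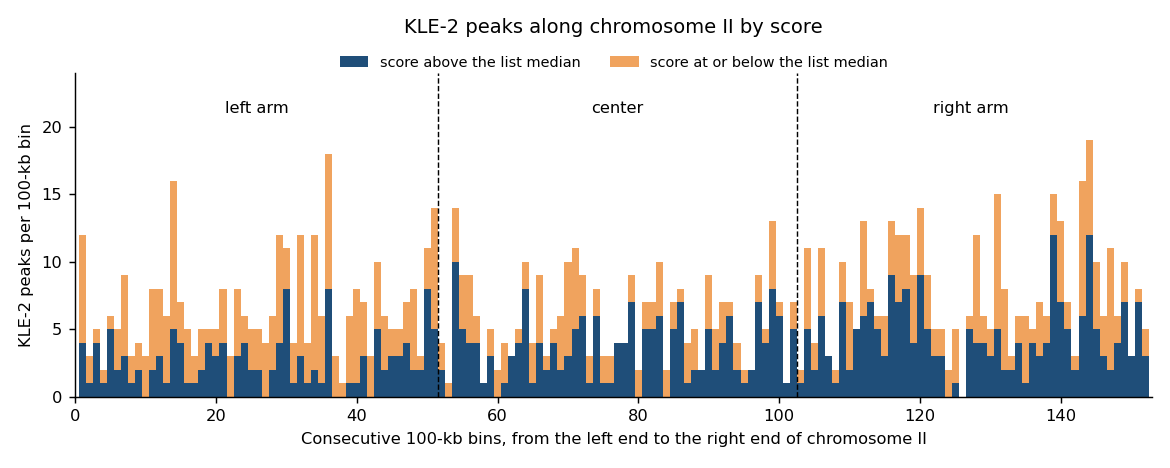
KLE-2 peaks per full 100-kb bin along chromosome II, stacked by score above (blue) or at or below (orange) the median of the whole list, with dashed lines between the arms and the center. The fullest bin, in the right arm, holds 19 peaks, and weaker peaks make up most of the crowded bins of the left arm.

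The count in a bin said little about the count in the next. The correlation between neighbouring full bins was 0.07 (Pearson's r) and 0.02 (Spearman's rho) over 152 bins of chromosome II, and between -0.05 and 0.12 (r) on the other autosomes. Stronger and weaker peaks shared bins only weakly, with r = 0.19 and rho = 0.16 over the same bins. These are correlations across positions of 1 list, given as a description.

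Many peaks stood close to another. The gap between neighbouring peaks, measured edge to edge, had a median of 5.91 kb (quartiles 1.56 and 18.3 kb) and a smallest value of 3 bp. Another peak lay within 2 kb for 468 of the 1034 peaks, 45.3% (42.2 to 48.4%), against 46.5% on the other autosomes. Within chromosome II the share was 46.3% in the left arm (40.9 to 51.8%), 33.8% in the center (28.4 to 39.5%) and 52.9% in the right arm (47.9 to 57.9%). The backgrounds for these regions were 52.5%, 41.8% and 44.5%. Peaks of the right arm had close neighbours more often than those of the center, whose interval did not overlap, and the other autosomes together had their highest share on the left.

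Runs were defined as sets of peaks each at most 2 kb from the next. Chromosome II had 566 lone peaks, 115 pairs, 36 runs of 3 and 23 runs of 4 or more. The runs of 4 or more held 130 peaks, 12.6% (10.6 to 14.7%), against 10.2% on the other autosomes, where single chromosomes ranged from 7.58% on I to 13.3% on III. This share depends on how finely the peaks were split, since after peaks within 500 bp were merged it was 4.52% on II and 3.36% on the other autosomes. Runs of 6 or more peaks numbered 10 and held 7.25% of the peaks of II, against 2.71 to 5.75% on the other autosomes. The largest run on II, with 11 peaks, was smaller than the largest on III, IV and V, which had 22, 12 and 20.

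The runs of 4 or more were concentrated in the arms, where the left arm had 10, the center 2 and the right arm 11. They held 16.5% of left-arm peaks, 5.07% of center peaks and 14.8% of right-arm peaks. The other autosomes together had 11.4%, 8.91% and 10.1% in the same order. Shares as low as that of the center of II were also found in the center of V (4.35%) and the right arm of I (4.83%). The largest run of II lay in the center all the same. Its 11 peaks at 9808063 to 9824515 filled 81.3% of 16.5 kb, with a median gap of 302 bp and scores from 62.85 to 584.21. The run of 9 peaks at 13817565 to 13829959 in the right arm filled 78.0% of 12.4 kb, with a median score of 1833.36 and 3 ceiling peaks. Another run of 9, at 3159543 to 3168553 in the left arm, filled 84.3% of 9.01 kb with gaps of 119.5 bp at the median, and its median score was 206.3. A left-arm run of 8 at 3510950 to 3524059 was looser, with 34.4% of 13.1 kb covered and a median gap of 1447 bp. The run of 7 at 14242177 to 14252013 had a median score of 115.74 and a highest score of 2982.52, the value just below the ceiling. The closely packed runs thus differed widely in score, from a median of 206.3 to 1833.36 in the runs of 9.

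Peaks in long runs had a lower median score than lone peaks but held ceiling peaks as well. The median score on chromosome II was 277.51 for lone peaks, 228.81 for peaks in runs of 2 or 3 and 189.94 for peaks in runs of 4 or more. On the other autosomes the medians were 235.78, 245.36 and 188.355. Peaks in runs of 4 or more were nevertheless the widest, with a median width of 605.5 bp against 545 bp for lone peaks. Of the 30 ceiling peaks, 20 were lone, 4 were in runs of 2 or 3 and 6 were in 3 runs of 4 or more. As shares of these classes they made up 3.53%, 1.18% and 4.62%, against 3.11%, 2.55% and 1.24% on the other autosomes. In the window from 3 to 4 Mb, where scores were lowest, 31 of the 74 peaks were in runs of 4 or more. The part that this crowding plays in the low scores of that window was not tested.

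Long stretches of chromosome II held no peak. Gaps of 50 kb or more numbered 64 and together made up 4648.2 kb, or 30.5% of the span, against 27.1% on the other autosomes. Chromosomes I and III had 14.4% and 16.1% of their spans in such stretches, IV had 29.98% and V had 41.2%. On II they took up 32.2% of the left arm, 32.8% of the center and 26.3% of the right arm, so the denser right arm still had 19 of them. The left arm had a longer median gap (6.05 kb) than the right arm (4.50 kb), and the center the longest (7.85 kb).

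Gaps of 100 kb or more numbered 9, of which 5 were in the center, 2 in the left arm and 2 in the right arm. The longest ran for 128.9 kb from 5918616 to 6047562 in the center. It was followed by 120.3 kb from 10663159 to 10783416 in the right arm and 117.7 kb from 5201348 to 5319025 in the center. The next were 116.4 kb from 2059621 to 2176014 and 115.2 kb from 733257 to 848494, both in the left arm. Of the 18 peaks that bounded the 9 stretches, 9 had scores at or below the list median, close to the 47.8% of all peaks on II, and the highest of them was 1461.48. All other autosomes except chromosome I had a longer longest stretch, of 146.4 kb on III, 156.1 kb on IV and 207.7 kb on V, against 117.1 kb on I.

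**Figure D4:**
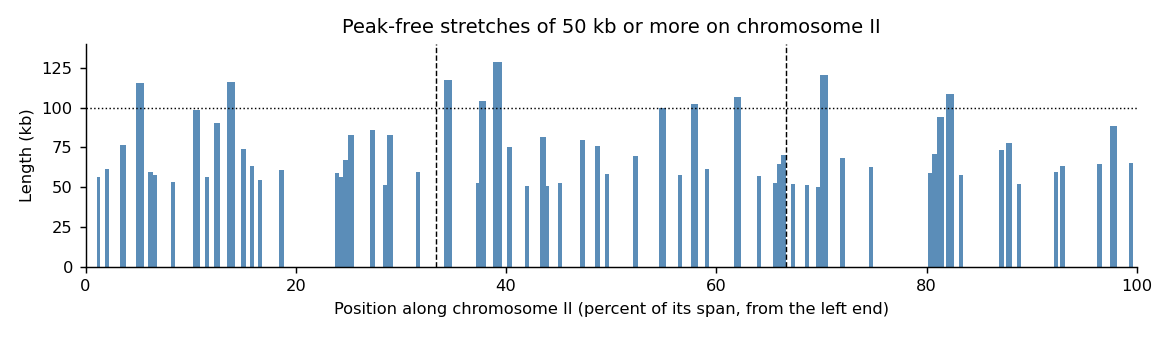
Length (kb) of each of the 64 peak-free stretches of 50 kb or more on chromosome II, drawn over the part of the chromosome that it spans (percent of the span), with dashed lines between arms and center and a dotted line at 100 kb. Long stretches occur in all 3 regions, and 5 of the 9 that reach 100 kb are in the center.

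The peaks were narrow. Their widths ran from 246 to 5713 bp, with a median of 551 bp (536 to 564; quartiles 431 and 708.75 bp), against 542 bp (536 to 549) on the other autosomes. Peaks of 1 kb or more numbered 108, or 10.4% (8.65 to 12.5%), equal to the background of 10.4%, and they supplied 26.9% of the covered bases. Peaks of 2 kb or more numbered 26, or 2.51% (1.65 to 3.66%), against 2.7%. The left arm held 9 of these, the center 6 and the right arm 11.

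Wider peaks had higher scores (Spearman's rho 0.83 across the 1034 peaks, given as a description). The median width was 378 bp among peaks in the lowest 25% of scores of the whole list, then 484 and 579 bp, and 772 bp (737 to 837) in the highest 25%. The other autosomes had 377, 482, 585.5 and 806.5 bp (783 to 824) in the same classes. In each class the intervals of chromosome II and of the other autosomes overlapped. Within each class except the highest, left-arm medians (370, 463 and 561 bp) were below those of the center (397, 501 and 584 bp). In the highest class the left arm was wider, at 792 bp against 724 bp in the center. On the other autosomes the left arm was also below the center in both lower classes (373 against 393 bp and 481 against 490.5 bp). It was above the center there in both upper classes (598 against 582 bp and 856 against 751 bp).

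The 5 widest peaks comprised 4 of the ceiling peaks already given and a 3991-bp peak at 4641157 to 4645147 in the left arm, whose score was 1545.58 and whose nearest neighbour lay 35.9 kb away. Not every wide peak was strong. Of the 26 peaks of 2 kb or more, 16 were at the ceiling, and 2 had scores below the list median. These 2, picked out after their values were seen, were a 2491-bp peak at 3466452 to 3468942 with a score of 64.68 and a 2632-bp peak at 6506069 to 6508700 with a score of 203.26. All 23 peaks narrower than 300 bp had scores of 99.94 or less.

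**Figure D5:**
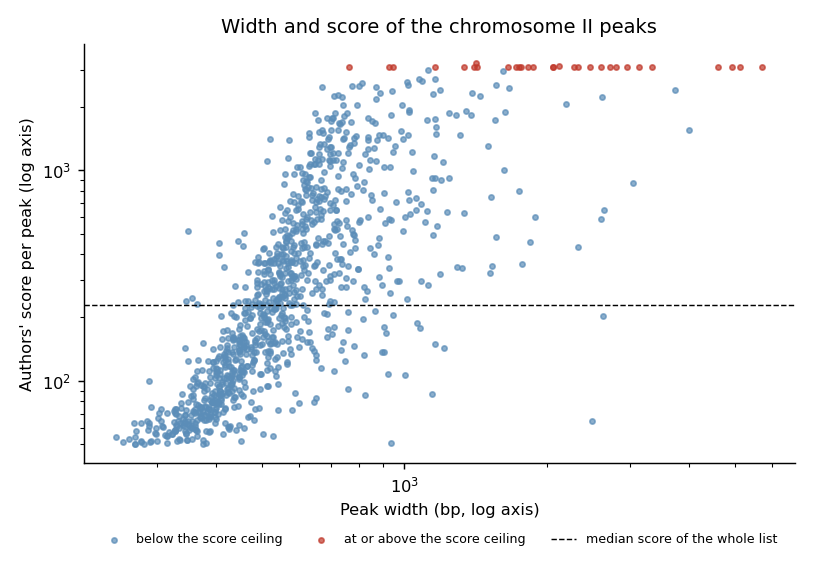
Width (bp) and authors' score of the 1034 KLE-2 peaks of chromosome II on log axes, with ceiling peaks in red and a dashed line at the median score of the whole list. Wider peaks have higher scores, ceiling peaks range from 763 to 5713 bp, and a few peaks of 2 kb or more lie far below the others of their width.

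The ends of the chromosome carried peaks as well. The first peak began at base 1, was 528 bp wide and had a score of 508.03, and the next peak lay 16.8 kb from it. The last peak, at 15262885 to 15263536, was 652 bp wide, had a score of 585.75 and was 29.7 kb from its neighbour. The outermost 500 kb held 28 peaks on the left and 35 on the right, with median scores of 299.065 and 427.09. The left end was therefore not low in score, and neither was the stretch from 4.5 to 5 Mb in the same arm, chosen after its values were seen, where 19 of 34 peaks were above the list median. On the right, 26 of the 35 peaks were above the list median and 4 were at the ceiling. In the last 500 kb of the other autosomes, 16 of 44 peaks were above the median on I, 32 of 60 on III, 15 of 26 on IV and 12 of 27 on V. Those ends held 0 to 2 ceiling peaks.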

How the data were processed

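The data are 1 list of peaks from the ChIP library. Reads were aligned with BWA to ce10, the browser name of WS220, per the submitters' processing notes. Peaks were called with MACS on WS220, per the file headers and columns. For MACS, the version, threshold, control and pooling were not stated in the labels or the file. The score of each peak is a deposited value of the authors, and nothing in the list names its scale. Read depth is unknown, since the list holds no counts. Coordinates count from 1.

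Densities, gaps, runs, bins, widths and score classes were computed in Python 3.11.15 with numpy 2.4.6, pandas 2.3.3 and scipy 1.17.1, on functions tested on simulated data. Intervals are at the 95% level. The named features are the 10 highest scores, 5 widest peaks, 5 largest runs, 5 longest stretches, 5 fullest bins and the end peaks. Members, features and comparisons were chosen with earlier results of these data known. No annotation or genome of WS220 was used here, so peaks are named by position, without genes or sequence.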

Additional observations from a re-analysis of the deposited data

How the results depend on the processing

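Alternatives numbered 46, of which 26 left a value within its interval (or unchanged, for the longest stretch), 19 moved it and 1 reversed it. Those for the left-arm share of stronger peaks and for the arm difference among stronger peaks, among weaker peaks and without runs were chosen after seeing the data. The left minus right arm difference was -11.8 peaks per Mb (-22.4 to -1.14). It reversed to 6.68 among weaker peaks and was -18.5 among stronger ones. Merging gave -7.08 with an interval of -17.0 to 2.86, which includes 0, and covered bases gave -13.9 kb per Mb. With peaks above the list median alone, density was 35.4 per Mb, the share with a neighbour 26.9%, the share in runs 3.15%, the longest stretch 254.1 kb, the median width 671 bp and the median score 583.18. With peaks within 500 bp merged, density was 59.5 per Mb, the share with a neighbour 32.6%, the share in runs 4.52%, the median width 566 bp and the median score 274.555. Covered bases gave 45.2 kb per Mb. The fullest bin held 14 peaks at 50 kb and 35 at 200 kb. At 1 kb and 5 kb, the share with a neighbour was 31.2% and 68.7%, and the share in runs 5.71% and 28.1%. Fewer peaks, wider bins and other limits change such values by construction.

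The left-arm share of stronger peaks was between 37.5% and 43.0% in the 5 alternatives run, the latter without the window of 3 to 4 Mb, where its interval (37.0 to 49.2%) includes the 46.9% of the other left arms. The share remained the lowest of 15 regions after merging and with arms of 25%. No paired analysis was possible because only the ChIP library has values here and no test was made. With 1 list, no replicate could be left out. Depth is unknown, so weak peaks may be missing.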

Other observations

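Neighbouring peaks of chromosome II resembled each other little in score. Over 294 pairs of neighbours at most 2 kb apart, Spearman's rho of the scores was 0.17, over 343 pairs 2 to 10 kb apart it was 0.08, and over 396 pairs farther apart it was 0.09. The pairs share peaks and 1 library, so these values are a description. Of the 294 close pairs, 75 had both scores above the list median, 94 had both at or below it and 125 had 1 of each. On the other autosomes, pairs with 1 of each were 176 of 382 close pairs on I, 185 of 403 on III, 129 of 316 on IV and 101 of 255 on V. The rho of close pairs there ran from 0.07 on I to 0.24 on V, so the values of II lay among theirs.

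In steps of 10% of the span, the density of stronger peaks on chromosome II was between 22.3 per Mb between 20 and 30% and 53.7 per Mb in the last 10%. The stretch between 80 and 90%, picked out after its values were seen, held 29.5 per Mb, with a median score of 211.2. The stretches on either side held 53.1 and 53.7 per Mb. Such a dip was not particular to II. At 80 to 90% of the span, III held 37.0 per Mb between 51.6 and 55.2, and V held 20.1 between 23.0 and 31.1. On I and IV that stretch was not lower than both its neighbours.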
